A study of Mus musculus with 16 samples.

Results

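Imprinting control regions (ICRs) are stretches of DNA that carry methylation on the chromosome inherited from 1 parent and set which parental copy of nearby genes is expressed. Some ICRs do not lie at the start of a large cluster but inside another gene, or beside one, where they hold the start of a short imprinted transcript while the surrounding host gene keeps a promoter of its own. The 6 ICRs of this kind in the list of 20 ICRs that the study examined were taken by that list's names, H13, Nnat, Inpp5f, Commd1, Herc3 and Trappc9, and each was read with 5 kb on either side and with the 2 kb on either side of the start of its host gene. The rule itself uses names and positions and no methylation value, but the members were chosen with earlier results of these data known. Reduced representation bisulfite sequencing (RRBS), in which bisulfite converts cytosines without a methyl group and the reads that keep a C give the methylation of a CpG, covered 178 CpGs of the 6 ICRs, and 434 with flanks and host promoters, of 1320646 CpGs in the 16 libraries.

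All libraries came from E14 mouse embryonic stem cells (mESCs) of 129/Ola origin, grown with serum and LIF, in 8 conditions of 2 replicates. They were young-passage cells (YP-mESCs, passage 14 in the labels) and old-passage cells (OP-mESCs), and the clones OP-S33Y #1 and OP-S33Y #2, which overexpress β-catenin with the stabilizing S33Y mutation and were kept in culture as long as the old cells. The others were mESCs transduced with a control short hairpin RNA (mESC shCtrl) or with 1 against β-catenin (mESC shβcat #1), and embryoid bodies (EBs), aggregates grown without LIF, made from either (EB shCtrl and EB shβcat #1). Each S33Y condition is 1 clone, and the hairpin lines were derived from young-passage cells. The study calls the replicates of YP-mESCs, OP-mESCs and clones biological, while the labels do not say whether replicates came from separate cultures. The p-values below thus concern these libraries alone, and those from read counts use a spread pooled over ICRs or CpGs.

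The libraries held 18919219 to 40519010 reads on CpGs and 413282 to 1152971 CpGs with at least 10 reads. OP-mESC replicate 2 covered the fewest CpGs and gave a level for 3 of the 6 ICRs, and YP-mESC replicate 1 for 5 of them. At CpGs inside CCGG, the sequence cut by MspI, an enzyme commonly used for RRBS, the strands of a CpG differed by 8.64 to 31.3 percentage points on average in a library, against 2.32 to 3.86 points at other CpGs. The mean level of CCGG CpGs over the genome was 16.8% to 27.1% in the 8 libraries of YP-mESCs, OP-mESCs and clones and 40.4% to 49.1% in the 8 libraries of transduced cells and EBs, whereas other CpGs averaged 12.1% to 14.6% and 13.8% to 18.1%. For the main differences between these 2 sets of libraries the values without CCGG CpGs are given as well.

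The H13 ICR (mm9 chr2:152512422-152513169) lies inside H13, which encodes a signal peptide peptidase, 17225 bp from the host start, and overlaps the coding sequence of Mcts2, a retrogene expressed from the paternal copy. The Nnat ICR (chr2:157385610-157387535) spans the start of Nnat, which encodes the membrane protein neuronatin, and lies within Blcap, transcribed from the opposite strand, 9475 bp from the 5′ end of that gene. The Inpp5f ICR (chr7:135830871-135832249) lies 76029 bp inside Inpp5f, a gene for an inositol polyphosphate phosphatase, where the imprinted variant Inpp5f_v2 starts. The Commd1 ICR (chr11:22871610-22874212) is in Commd1, a gene of copper metabolism, 8170 bp from its start. It overlaps coding sequence of Commd1 and of Zrsr1, which is transcribed from the opposite strand. The Herc3 ICR (chr6:58856397-58857391) is in Herc3, a gene for a ubiquitin ligase, 74938 bp from its start, and overlaps the coding sequence of Nap1l5, another paternally expressed retrogene. The Trappc9 ICR (chr15:72639708-72641342) is 250292 bp inside Trappc9, which encodes a subunit of a vesicle trafficking complex, and overlaps no exon of the annotation used; Peg13, a non-coding RNA, starts in this intron. At ICRs of this kind the maternal copy is known to be the methylated one, and a cell population with 1 methylated and 1 unmethylated copy has about equal shares of methylated and unmethylated reads.

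Stretches of the ICRs are shown because they hold CpGs that had at least 10 reads in most libraries. The levels below also rest on covered CpGs outside them, and some of the single CpGs named below lie outside them. Capitals mark the CpGs, and all are on the plus strand of mm9. The stretches are chr2:152512587-152512719 in the H13 ICR, chr2:157387510-157387539 across the downstream end of the Nnat ICR, chr7:135831715-135831864 in the Inpp5f ICR, chr11:22872124-22872231 in the Commd1 ICR, chr6:58856759-58856875 in the Herc3 ICR, within the coding sequence of Nap1l5, and chr15:72640127-72640255 in the Trappc9 ICR.
H13: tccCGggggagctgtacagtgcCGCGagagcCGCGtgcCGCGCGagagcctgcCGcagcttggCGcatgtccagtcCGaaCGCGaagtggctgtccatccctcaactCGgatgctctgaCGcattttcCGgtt
Nnat: ggcCGgtaggcccccagaaaagcagcacCG
Inpp5f: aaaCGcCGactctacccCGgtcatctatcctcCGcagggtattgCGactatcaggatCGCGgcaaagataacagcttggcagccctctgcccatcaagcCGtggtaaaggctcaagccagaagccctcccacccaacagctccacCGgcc
Commd1: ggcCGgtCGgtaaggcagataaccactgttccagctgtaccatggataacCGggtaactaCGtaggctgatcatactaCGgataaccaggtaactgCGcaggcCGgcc
Herc3: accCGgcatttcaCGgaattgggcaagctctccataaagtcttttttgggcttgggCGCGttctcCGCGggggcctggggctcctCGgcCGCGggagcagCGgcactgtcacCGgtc
Trappc9: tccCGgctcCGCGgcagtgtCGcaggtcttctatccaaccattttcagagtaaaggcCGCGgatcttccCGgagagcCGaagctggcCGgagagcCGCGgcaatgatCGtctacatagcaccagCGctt

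The hexanucleotide TGCCGC, which in its methylated form is bound by ZFP57, a zinc finger protein that guards imprints, was searched on both strands. It occurred 3 times in the H13 ICR, 6 times in those of Nnat and Inpp5f, 5 times in those of Herc3 and Trappc9, and 2 times in the Commd1 ICR. Each of the 20 ICRs held at least 1 match, and so did 30.8% to 46.5% of windows of the same lengths around the starts of 22380 coding genes, depending on the length. The windows are centred on gene starts and the ICRs are not, and a match is a run of letters and not a binding site. Few of these CpGs were covered. The values of YP-mESCs below are of the reads of both replicates. Those of OP-mESCs are of replicate 1 at H13, Inpp5f, Herc3 and the Trappc9 CpG at 516 bp. Replicate 2 gave no value at these matched CpGs. The matched CpG 187 bp into the H13 ICR had 30.8% methylation in YP-mESCs and 0% in OP-mESCs, of 39 and 28 reads. The matched CpG 903 bp into the Inpp5f ICR had 23.5% and 0%, of 34 and 31 reads. The matched CpG 462 bp into the Herc3 ICR had 50% and 17.4%, of 38 and 23 reads. In the Trappc9 ICR, the matched CpG 430 bp into it had 87.5% and 100%, of 48 and 39 reads. The matched CpG 516 bp into the Trappc9 ICR had 82.7% and 81.8%, of 52 and 22 reads.

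RRBS reached between 17.1% of the CpGs of the Inpp5f ICR, 14 of 82, and 47.0% of those of the Commd1 ICR, 62 of 132. The level of an ICR is the mean percentage over its covered CpGs in a library, of which at least 2 were required, so that it stands for the covered part and rests on somewhat different CpGs in different libraries. Reads that span several CpGs were counted at each of them.

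**Figure D1:**
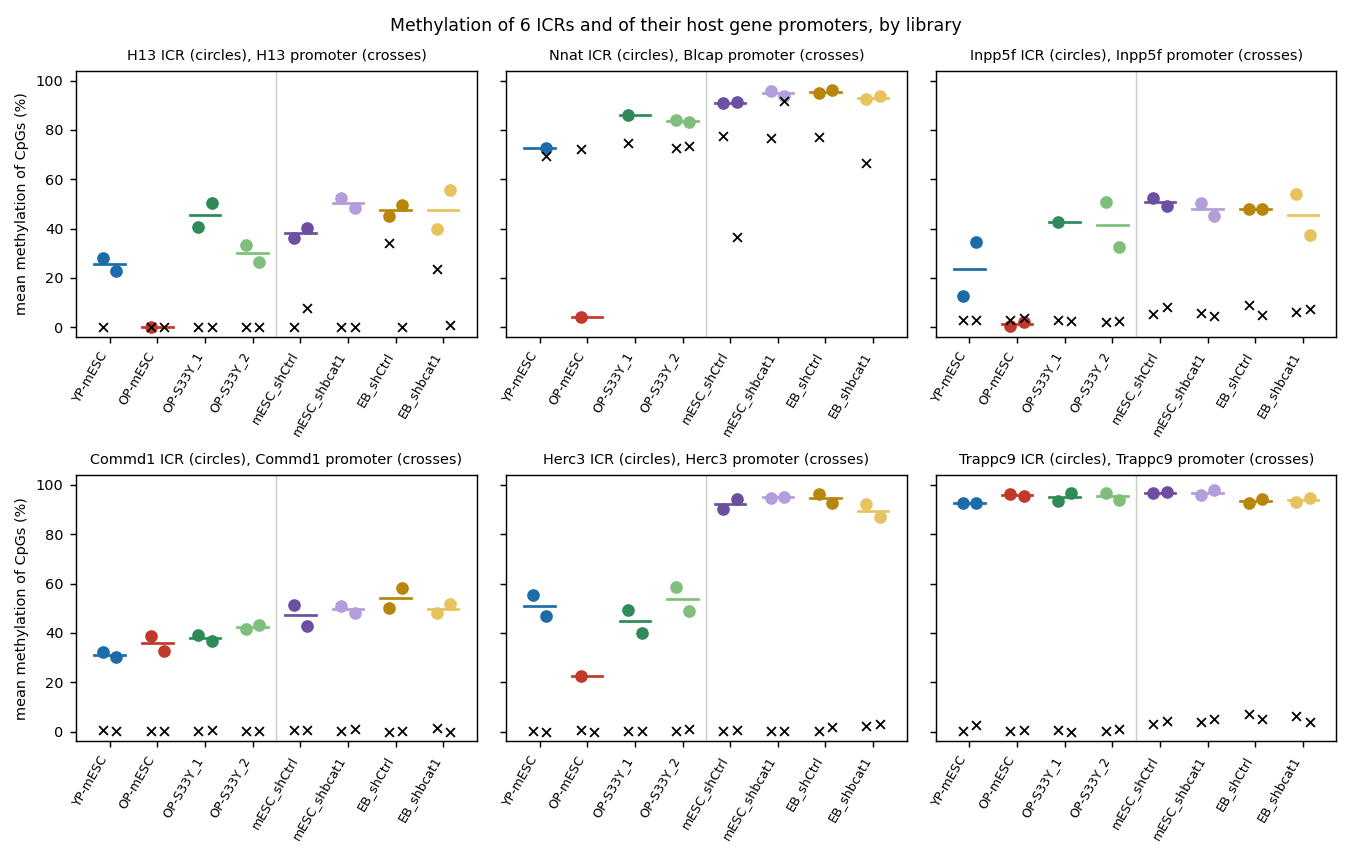
Mean methylation (%, vertical axis) of the 6 ICRs (circles, 1 per library, with a line at the mean of the replicates) and of their host gene promoters (crosses) in the 8 conditions, where mESC_shbcat1 and EB_shbcat1 are mESC and EB shβcat #1. In OP-mESCs (red) the H13, Nnat and Inpp5f ICRs sit near 0%, Herc3 at 22.6%, and Commd1 and Trappc9 at the height of other conditions, and Herc3 lies at 86.9% or above in the 8 libraries to the right of the grey line.

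The H13 ICR had 28.1% and 22.8% methylation in the replicates of YP-mESCs and 0.296% in OP-mESC replicate 1, and no covered CpG in OP-mESC replicate 2. The replicates of OP-S33Y #1 had 40.5% and 50.4%, and those of OP-S33Y #2 33.5% and 26.4%. In mESC shCtrl it had 36% and 40.04%, in mESC shβcat #1 52.3% and 48.2%, in EB shCtrl 45.0% and 49.7%, and in EB shβcat #1 39.6% and 55.6%. The YP-mESC replicates were therefore below every library of transduced cells and EBs, and OP-mESC replicate 1 was below all the others. Without CCGG CpGs, YP-mESCs had 24.4% and 27.7% and transduced cells and EBs 35.4% to 55.8%.

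The Nnat ICR had 72.8% in YP-mESC replicate 2, 4.36% in OP-mESC replicate 1, 86.2% in OP-S33Y #1 replicate 1, and 84.2% and 83.3% in OP-S33Y #2. The 3 other libraries of these conditions covered 1 CpG of it, too few for a level. In the 8 libraries of transduced cells and EBs it had 90.7% to 96.0%, so that all libraries with a level but that of OP-mESCs were at 72.8% or above.

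The Inpp5f ICR had 12.6% and 34.5% in YP-mESCs, a spread of 15.5 points (SD, n = 2), and 0.477% and 2.30% in OP-mESCs. It had 42.8% in OP-S33Y #1 replicate 1, 50.8% and 32.5% in OP-S33Y #2, and 37.3% to 54.0%, with a median of 48.6%, in the 8 libraries of transduced cells and EBs. Both OP-mESC replicates were below all other libraries, and YP-mESC replicate 1 came next.

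The Herc3 ICR had 55.2% and 46.7% in YP-mESCs, 22.6% in OP-mESC replicate 1 and no covered CpG in OP-mESC replicate 2. The replicates of OP-S33Y #1 had 49.2% and 40%, and those of OP-S33Y #2 58.4% and 48.9%. In the 8 libraries of transduced cells and EBs it had 86.9% to 96.4%, with no overlap with the 7 others. Without CCGG CpGs these ranges were 84.6% to 96.0% and 20.97% to 55.5%.

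The Commd1 ICR had 32.2% and 30.2% in YP-mESCs and 38.7% and 32.7% in OP-mESCs. It had 39.3% and 36.7% in OP-S33Y #1, 41.6% and 43.2% in OP-S33Y #2, and 42.9% to 58.2%, with a median of 50.5%, in transduced cells and EBs. It is the member whose OP-mESC level lay above both YP-mESC replicates while remaining between the extremes of 0% and 100%.

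The Trappc9 ICR had 92.5% to 97.8% in all 16 libraries. No library, in mESCs or in EBs, had the intermediate level of a region with 1 methylated copy at its covered CpGs, and no other member was as even across the conditions.

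The covered CpGs of an ICR varied among themselves by a median SD of 5.09 points in a library for Trappc9, 6.08 for Herc3, 8.20 for Inpp5f, 8.71 for Nnat, 9.56 for H13 and 12.3 for Commd1. By this SD the Commd1 ICR was the most uneven of the 6 and the Trappc9 ICR the most even. The SD was not corrected for the level, the read depth or the number of CpGs. Counting error is smaller near the ends of the percentage scale. The Trappc9 level was 92.5% to 97.8% and the Commd1 level 30.2% to 58.2%. The order can thus reflect the levels, and unevenness beyond counting error was not tested.

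**Figure D2:**
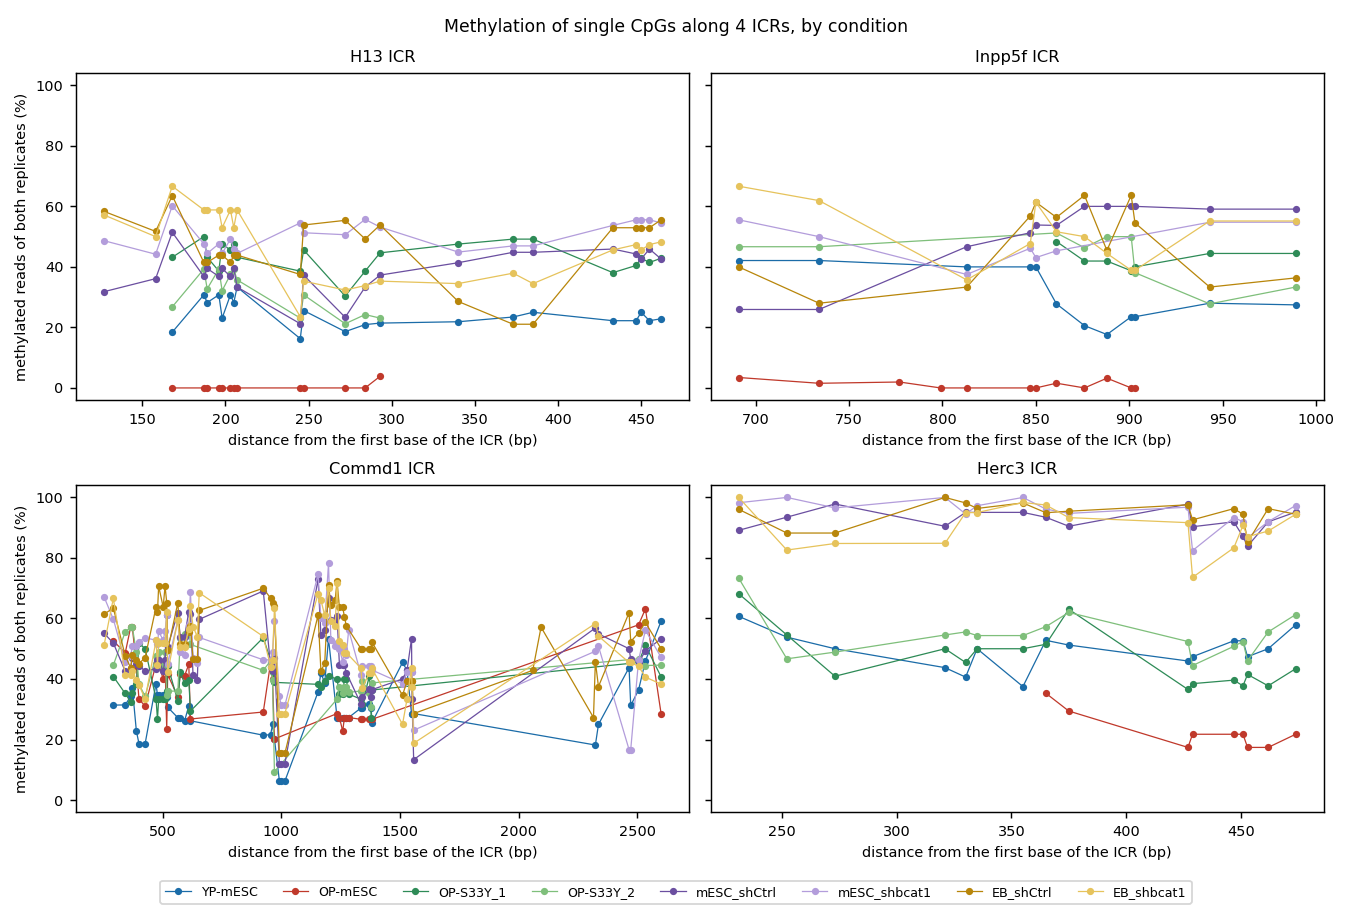
Methylated reads of both replicates (%, vertical axis) at each covered CpG against its distance from the first base of the ICR (bp, horizontal axis) in 4 ICRs, 1 line per condition. The OP-mESC line runs near 0% along H13 and Inpp5f, through the range of the other lines in Commd1, and between 17.4% and 35.3% in Herc3, where the 4 lines of transduced cells and EBs run above all others. The OP-mESC lines in H13 and Herc3 are replicate 1 alone.

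The comparison of OP-mESCs with YP-mESCs sets cells after long culture against young-passage cells of the same line. The cause of the differences was not tested. The level was lower in OP-mESCs at H13, by -25.2 points, at Nnat, by -68.5 points, at Inpp5f, by -22.2 points, and at Herc3, by -28.3 points, and higher at Commd1, by 4.57 points, and at Trappc9, by 3.41 points. The median difference of the 6 was -23.7 points, against -31.6 points over the 12 other ICRs with a level in both conditions. In OP-mESC replicate 1, 12 of 13 covered CpGs of the H13 ICR had no methylated read, as had 10 of 12 at Inpp5f and 2 of 7 at Nnat, whereas no covered CpG of the Herc3, Commd1 or Trappc9 ICRs was at 0%. Of single CpGs in this library, the deepest H13 CpG had 0 of 28 methylated reads (95% Wilson interval 0% to 12.1%), the deepest Inpp5f CpG 0 of 67 (0% to 5.42%), the deepest Herc3 CpG 4 of 23 (6.98% to 37.1%) and the deepest Commd1 CpG 28 of 63 (32.8% to 56.7%). These intervals cover counting error only.

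Each ICR was compared by a quasi-binomial F test on the reads of CpGs covered in all 4 libraries, with at least 2 such CpGs, an overdispersion shared by all ICRs tested and Benjamini-Hochberg adjustment over them, and was called at an adjusted p under 0.05. In OP-mESCs against YP-mESCs this left 2 of the 6 members to test, Commd1 (adjusted p = 0.245) and Trappc9 (adjusted p = 0.702). Neither was called nor had an unadjusted p under 0.05, where 36.4% of the 11 ICRs tested were called lower and 0% higher. The 4 members with large differences had fewer than 2 CpGs common to all 4 libraries, so that their differences could not be tested on common CpGs. Without OP-mESC replicate 2, 5 members could be tested, and in the quasi-binomial test H13 (adjusted p = 0.000409), Inpp5f (adjusted p = 0.0147) and Herc3 (adjusted p = 0.0191) were called lower and Commd1 (adjusted p = 0.0151) higher, with 56.2% of the 16 ICRs then tested called lower and 6.25% higher. The single OP-mESC library is assumed in that test to vary like the others. With limma on the levels of all 16 libraries, H13, Nnat, Inpp5f and Herc3 were called lower (adjusted p = 0.00687, 3.9e-07, 0.0297 and 0.00118), and 66.7% of the 18 ICRs with a level in both conditions were called lower. In that fit Nnat is 1 library against 1, H13 and Herc3 have 1 OP-mESC library, and a lone library is assumed to vary like those of the other conditions. Commd1 did not pass in limma (adjusted p = 0.289), and its value in the count test rested on leaving OP-mESC replicate 2 out.

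Single CpGs were compared in a binomial model with an overdispersion shared by all CpGs of the genome, and were called at a Benjamini-Hochberg adjusted p under 0.05 and a difference over 25 points. That overdispersion was 1.15 to 1.26 in the 9 comparisons, so that these p-values do not measure the replicate spread at the CpG itself. Of 101 CpGs of the 6 loci with reads in all 4 libraries, 3 were called lower and 1 higher in OP-mESCs, while 2.26% and 0.0705% of all CpGs compared in the genome were. All 3 that fell are neighbours at the downstream end of the Nnat ICR, in or just past the stretch printed above. Those 22 bp before and 59 bp past the end are in CCGG. Over the genome 4.15% of CCGG CpGs and 1.24% of other CpGs were called lower. Those 22 bp before and 3 bp past the end had equal read counts in all libraries but mESC shCtrl replicate 2 (43 and 33 reads), so that they can share reads. The CpG 22 bp before the end of the ICR had 78.4% and 94.7% in YP-mESCs and 3.85% and 0% in OP-mESCs (adjusted p = 1.5e-11 in the binomial model). The CpG 3 bp past the end had 75.7% and 89.5%, and 3.85% and 0% (adjusted p = 1.6e-10 in the same model). The CpG 59 bp past the end had 92.3% and 80%, and 0% and 10.5% (adjusted p = 1.9e-12 in the same model). These CpGs were covered in every library, with 14 to 68 reads each, and in the 12 libraries of the other 6 conditions they had 82.8% to 100%. Both replicates of OP-mESCs were thus far below the other 14 libraries at each of them. Of the 3, that 22 bp before the end alone lies in the ICR, and it is the 1 CpG of the ICR common to all libraries. The values are thus those of the downstream end and do not stand for the whole Nnat ICR. With at least 20 reads required in each library, none of the 3 could be compared, since OP-mESC replicate 2 had 14 to 19 reads there.

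**Figure D3:**
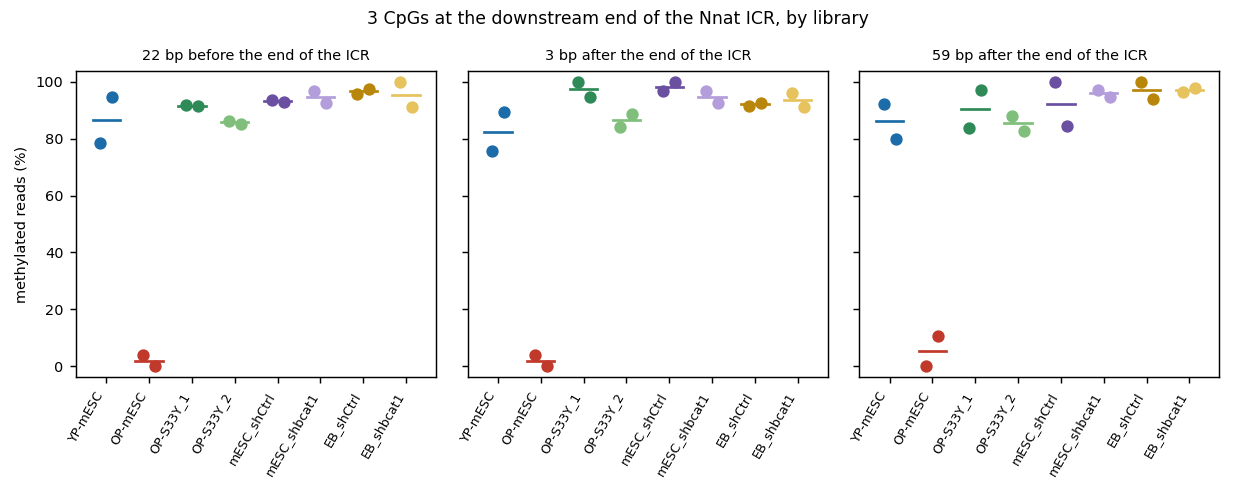
Methylated reads (%, vertical axis) of the 3 CpGs at the downstream end of the Nnat ICR in the 8 conditions, 1 point per library with a line at the mean of the replicates. The OP-mESC points lie between 0% and 10.5%, and all other points between 75.7% and 100%.

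Lower values were also read on the other side of the Nnat ICR. At 3 CpGs between 1571 and 1619 bp before the ICR, OP-mESC replicate 1 had 23.1% to 53.8% methylation of 13 reads each, and the mean of its left flank was 41.0%, against 89.8% to 96.0% in the 4 libraries of YP-mESCs and clones that covered this flank and 93.5% to 97.6% in transduced cells and EBs. OP-mESC replicate 2 had no covered CpG there, so that this is the value of 1 library with no test. The right flank, which holds a CpG island with further annotated starts of Blcap 4532 to 4562 bp past the ICR, was at 0.459% and 0.905% in OP-mESCs and 6.83% to 12.2% in the others. Of the 15 CpGs of that flank common to YP-mESCs and OP-mESCs, 2 were called, those 3 and 59 bp past the ICR, and the median difference over the 15 was 0.

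The CpG called higher in OP-mESCs lies 955 bp into the Commd1 ICR, with a mean of 48.3% against 18.9% in YP-mESCs (difference 29.4 points, adjusted p = 0.0411 in the binomial model). It lost this call when OP-mESC replicate 1, OP-mESC replicate 2 or YP-mESC replicate 2 was left out, and when the strands were kept apart.

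The S33Y clones give the levels of long-cultured clones that overexpress stabilized β-catenin. No clone without the mutant protein was among the conditions, so that its effect and that of deriving a clone cannot be told apart. Both clones and OP-mESCs were compared with the same YP-mESC libraries, so that the comparisons are not independent. In OP-S33Y #1, the H13 ICR was higher than in YP-mESCs by 20.02 points (adjusted p = 0.0151 in the quasi-binomial test), and it was the single member called of 4 tested, with 20% of the 15 ICRs tested called higher and 0% lower. The call did not hold with the replicate number as a block (adjusted p = 0.0655), with either YP-mESC replicate left out (adjusted p = 0.0584 and 0.353 in the same count test) or without OP-S33Y #1 replicate 2 (adjusted p = 0.0641). Commd1, Herc3 and Trappc9 differed by 6.84, -6.33 and 2.50 points with adjusted p = 0.0863, 0.711 and 0.711 in the quasi-binomial test, and Nnat and Inpp5f, at 13.4 and 19.2 points, could not be tested on common CpGs. Limma called H13 higher (adjusted p = 0.0212), and also Nnat, as 1 library against 1, and called 21.1% of 19 ICRs higher. At the 1 CpG of the Nnat ICR common to the 4 libraries the difference was 5.13 points.

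In OP-S33Y #2, the Commd1 ICR was higher than in YP-mESCs by 11.3 points (adjusted p = 0.000389 in the quasi-binomial test), the single member called of 5 tested, with 31.2% of the 16 ICRs tested called higher and 12.5% lower. This call held in all 10 alternatives tried, including those without each of the 4 libraries in turn. Of these, read-weighted levels and common CpGs change the level alone, so that they could not change the call. Inpp5f, at 18.0 points, did not pass (adjusted p = 0.0644) but did without YP-mESC replicate 2 (adjusted p = 0.00903 in the same count test). Nnat, at 10.9 points, could not be tested on common CpGs. At the 1 CpG of its ICR common to the 4 libraries it differed by -0.783 points. Limma called Nnat higher on 1 YP-mESC library, with 38.9% of 18 ICRs called higher by limma. H13, Herc3 and Trappc9 differed by 4.52, 2.73 and 2.75 points with adjusted p = 0.339, 0.804 and 0.330 in the quasi-binomial test. Of single CpGs, 0 of 179 were called in OP-S33Y #1, where 18 had an unadjusted p under 0.05 in the binomial model, with 0.138% of all CpGs called higher and 0.131% lower. In OP-S33Y #2, 2 of 181 were called higher, both in the Commd1 ICR, with 0.109% of all CpGs called higher and 0.684% lower. They lost the call without any 1 of the 4 libraries.

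Set against OP-mESCs, the clones had higher levels at H13, by 45.2 points in #1 and 29.7 in #2, at Nnat, by 81.9 and 79.4 points, at Inpp5f, by 41.4 and 40.2 points, and at Herc3, by 22.0 and 31.0 points. At Commd1 they differed by 2.27 and 6.69 points and at Trappc9 by -0.913 and -0.663 points. As above, the last 2 were those that could be tested with all libraries, and neither was called in either clone, nor had an unadjusted p under 0.05 in the quasi-binomial test, where 36.4% and 54.5% of 11 ICRs were called higher. Without OP-mESC replicate 2, all 6 could be tested in OP-S33Y #2, and H13, Nnat, Inpp5f and Herc3 were called higher (adjusted p = 8.3e-08, 1.6e-08, 9.8e-07 and 0.000125 in the quasi-binomial test), with 66.7% of 18 ICRs called higher. In OP-S33Y #1, 4 could then be tested and H13 was called (adjusted p = 0.000184), with 42.9% of 14 ICRs called higher, while Herc3 was not (adjusted p = 0.158 in the same count test). With limma, those 4 members were called higher in both clones, as were 72.2% and 66.7% of 18 ICRs. H13, Nnat and Herc3 have 1 OP-mESC library in these fits, and Nnat and Inpp5f 1 library of OP-S33Y #1, each assumed to vary like the other conditions. The 3 CpGs at the Nnat end were called higher in both clones, by 80.2 to 95.5 points, and so was 1 CpG 861 bp into the Inpp5f ICR in OP-S33Y #2, by 46.8 points, which made 3 of 101 and 4 of 102 CpGs compared, against 2.16% and 0.54% of all CpGs called higher and 0.0561% and 0.0672% lower.

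The hairpin against β-catenin was compared with the control hairpin in mESCs and in EBs, where all 6 members could be tested. In mESC shβcat #1, 0 of 6 ICRs were called in the quasi-binomial test, and 0% of the 19 ICRs tested were, in either direction. The H13 ICR had an unadjusted p of 0.0196 in that test with 38.0% ± 2.86 (SD, n = 2) in mESC shCtrl and 50.2% ± 2.90 in mESC shβcat #1, a difference of 12.2 points that did not pass the adjustment (adjusted p = 0.186), and limma gave 0 calls as well. Inpp5f went from 50.7% ± 2.31 to 47.7% ± 3.83, and the other 4 differed by -0.0551 to 3.78 points. In EB shβcat #1, 0 of 6 were called and 0 had an unadjusted p under 0.05, with 5.26% of 19 ICRs called lower, and limma gave 0 calls. The differences ran from -5.05 points at Herc3 to 0.372 points at Trappc9. Whether the effect of the hairpin differed between EBs and mESCs was tested as an interaction, which no member passed. The smallest p, that of H13, was 0.0273 with an adjusted p of 0.259 in the quasi-binomial test, for effects of 12.2 points in mESCs and 0.260 points in EBs. Among single CpGs, 0 of 293 were called in mESCs and 0 of 279 in EBs, with 14 and 12 at an unadjusted p under 0.05 in the binomial model, where 0.0533% and 0.0415% of all CpGs were called higher and 0.0211% and 0.0129% lower.

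EB shCtrl was compared with mESC shCtrl for the change on differentiation. None of the 6 ICRs was called in the quasi-binomial test, with 2 at an unadjusted p under 0.05, H13 with a difference of 9.36 points (adjusted p = 0.0834) and Commd1 with 7.06 points (adjusted p = 0.0893), and limma gave 0 calls. The other 4 differed by -3.36 to 4.53 points. Of the 19 ICRs tested, 5.26% were called higher. Of 277 CpGs, 1 was called higher, 272 bp into the H13 ICR, by 33.4 points (adjusted p = 0.0147 in the binomial model), against 6.06% of all CpGs compared in the genome called higher and 0.0664% lower.

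The control hairpin line was derived from YP-mESCs and is compared with them here because the 2 sets of libraries stood apart at these loci. The hairpin vector, the culture after transduction and the set of libraries change together in this comparison and cannot be told apart. The Herc3 ICR had 92.2% ± 2.74 in mESC shCtrl and 51.0% ± 5.95 (SD, n = 2) in YP-mESCs, a difference of 41.3 points (adjusted p = 1.3e-06 in the quasi-binomial test). The Commd1 ICR had 47.1% ± 5.97 and 31.2% ± 1.42, a difference of 15.9 points (adjusted p = 1.6e-06), and the H13 ICR 38.0% ± 2.86 and 25.5% ± 3.75, a difference of 12.6 points (adjusted p = 0.0071 in the same test). These 3 of the 5 members tested were called higher, where 41.2% of the 17 ICRs tested were. Inpp5f, at 27.1 points (adjusted p = 0.0845), and Trappc9, at 4.32 points (adjusted p = 0.177), did not pass the quasi-binomial test, and Nnat, at 18.2 points, could not be tested on common CpGs. Limma called both Inpp5f (adjusted p = 0.0167) and Nnat (on 1 YP-mESC library) higher beside Herc3 and Commd1. It called 47.4% of 19 ICRs higher. At the 1 CpG of the Nnat ICR common to the 4 libraries the difference was 6.73 points.

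Without CCGG CpGs the difference was 43.0 points at Herc3 (adjusted p = 1.6e-05), 12.8 points at Commd1 (adjusted p = 0.000526) and 11.1 points at H13 (adjusted p = 0.0275 in the quasi-binomial test), so that all 3 kept the call, and it was 30.1 points at Inpp5f, 18.96 at Nnat and 5.01 at Trappc9. The call of H13 was lost without mESC shCtrl replicate 2 (adjusted p = 0.0911), without YP-mESC replicate 2 (adjusted p = 0.123 in the same count test) and in limma (adjusted p = 0.0762). Those of Herc3 and Commd1 held without each of the 4 libraries in turn. With 20 reads required Commd1 kept its call (adjusted p = 2.4e-05 in the count test), and Herc3 had no common CpGs left to test.

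Single CpGs were compared as well, which gives the difference at the CpGs compared and not in the rest of an ICR. Of the 58 CpGs of the Herc3 ICR, 16 were covered in any library. Neighbouring CpGs can share reads and are then not separate observations. In mESC shCtrl, 22 of 189 CpGs were called higher and 0 lower than in YP-mESCs, against 2.52% and 0.332% of all CpGs compared in the genome. They included all 9 CpGs of the Herc3 ICR that could be compared, 365 to 474 bp into it and within the stretch of Nap1l5 coding sequence printed above, with differences of 34.98 to 51.3 points, of which 7 lie outside CCGG. At Commd1, 9 of 24 were called, 6 of them in CCGG, and at H13 1 of 21, in CCGG. The other 3, at 6108 bp from the start of the Nnat ICR and 1105 and 1057 bp before the start of Inpp5f, are all in CCGG. Over the genome, 5.28% of CCGG CpGs and 1.08% of other CpGs were called higher in this comparison. When CCGG CpGs were left out, 10 member CpGs were called.

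**Figure D4:**
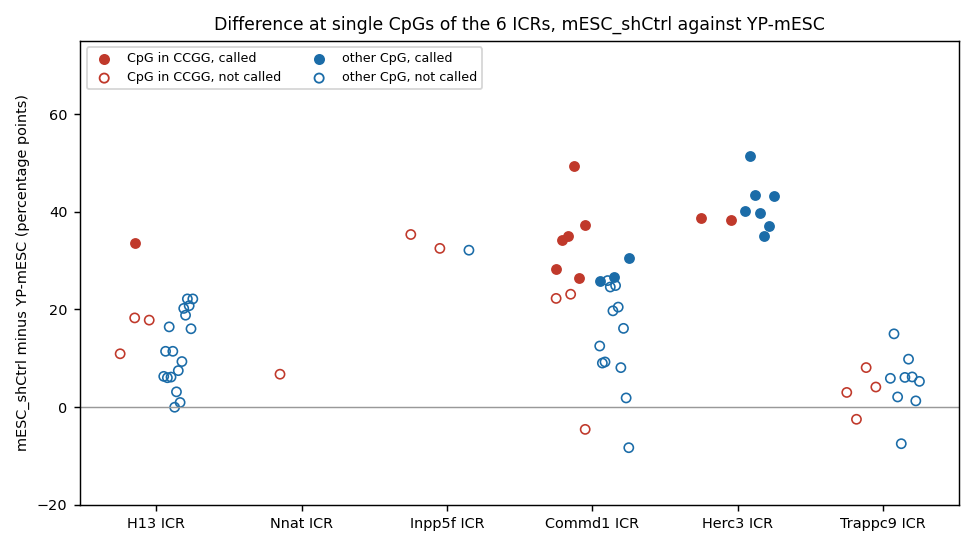
Difference in methylation between mESC shCtrl and YP-mESCs (percentage points, vertical axis) at each CpG of the 6 ICRs covered in all 4 libraries, for CpGs in CCGG (red) and others (blue), with called CpGs filled. All 9 Herc3 CpGs are filled and lie at 34.98 points or above, while the filled H13 point and 6 of the 9 filled Commd1 points are in CCGG.

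The promoters of Commd1, Herc3, Inpp5f and Trappc9 had low methylation in all libraries, whatever the level of the ICR. The Commd1 promoter had 0% to 1.65% methylation in the 16 libraries and the Herc3 promoter 0% to 3.11%, while the ICRs ranged from 30.2% to 58.2% and from 22.6% to 96.4%. The Inpp5f promoter had 2.22% to 3.69% in YP-mESCs, OP-mESCs and clones, and 4.66% to 9.11% in transduced cells and EBs. The Trappc9 promoter had 0.0367% to 2.67% and 3.24% to 6.94% in these sets, 250292 bp from an ICR at over 92%. Without CCGG CpGs the sets overlapped at both promoters, with 0% to 0.635% and 0.0866% to 3.07% at Inpp5f and 0% to 0.984% and 0% to 1.25% at Trappc9. At the H13 promoter, the 12 libraries with a level that read 2 CpGs had 0% to 1%, and the 3 that read 7 or 16 CpGs had 7.83% to 34.3%. At the 5′ end of Blcap, 10 of the 11 libraries with a level read 2 CpGs, 1702 and 1854 bp upstream of the start, at 66.7% to 91.7%, so that the CpGs nearer to this start were not read in them.

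In OP-mESCs against YP-mESCs, 66 CpGs of the host promoters could be compared, of which 0 were called in the binomial model, and their median difference was 0. The clones gave 0 calls among 89 and 93 promoter CpGs against YP-mESCs and 0 among 67 and 67 against OP-mESCs, and the hairpin against β-catenin 0 among 120 in mESCs and 0 among 120 in EBs. The 2 Inpp5f CpGs named above were the single promoter calls in the 9 comparisons. At H13, Inpp5f and Herc3, where the ICR was lower in OP-mESCs, 1, 20 and 9 of the compared promoter CpGs belonged to the host gene, and their differences ran from -8.81 to 2.63 points.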

How the data were processed

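The 16 RRBS libraries were grouped into 8 conditions of 2 by their labels. Per the labels they were made with NuGEN Ovation kits. The submitters' processing notes name CASAVA 1.8.2, Trim Galore 0.2.8 and Bismark 0.7.9, and the authors aligned to mm9. The authors deposited, for each cytosine of a CpG with at least 10 reads, the read count and the percent of methylated reads, not normalized and not pooled. The enzyme and the handling of duplicate reads are not given in the sources used here.

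Methylated reads were computed from count and percent, and the strands of a CpG were summed. The level of an ICR is the mean percent of its covered CpGs, at least 2. The rule for named items takes the 6 ICRs in every comparison, their 5 kb flanks and host promoters, mostly through their called CpGs, and the other 14 ICRs as counts and medians. The members and lists were chosen with earlier results of these data known. ICRs were compared in 9 comparisons with a quasi-binomial F test, single CpGs with a binomial model with shared overdispersion (estimated at 10% to 90% methylation), both Benjamini-Hochberg adjusted over all ICRs or CpGs compared. Reads of a CpG are treated as separate molecules, and duplicates would make them less so. For 2 libraries against 2 the smallest p of an exact permutation test is 0.33. Deviations of same-numbered replicates had correlations of -0.0343 to 0.0528 across CpGs. These include the counting error of single CpGs, so that they cannot exclude a pairing.

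Alternatives were 20 reads, a difference over 10 points, separate strands, read-weighted levels, common CpGs, a replicate block, limma on the levels of all 16 libraries, and each library left out. CpGs in CCGG were left out of tests and levels as an alternative chosen after seeing the data. Both tests were tried on simulated reads. The genome and annotation were NCBIM37 (mm9) and GENCODE vM1. Tools were limma 3.58.1 in R 4.3.3, and Python 3.11.15 with pysam 0.24.0, scipy 1.17.1, numpy 2.4.6, pandas 2.3.3 and matplotlib 3.10.9.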

Additional observations from a re-analysis of the deposited data

How the results depend on the processing

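Most results kept their direction and their side of the threshold. Read-weighted levels and common CpGs change the difference of an ICR but not its test, so that they could not change whether it was called. Of the 54 differences of the 6 ICRs, 9 changed sign when a library was left out, reaching up to 10.7 points in size, and 8 under another setting, up to 11.9 points, and none of these was called. Counts of ICRs or CpGs that moved by more than 1.5 times, the cause of which was not tested beyond the fewer ICRs, CpGs or libraries compared, were as follows. With limma, 4 ICRs were called lower in OP-mESCs than in YP-mESCs, 2 higher in OP-S33Y #1 and 2 higher in OP-S33Y #2 than in YP-mESCs, and 4 higher in OP-S33Y #1 and 4 higher in OP-S33Y #2 than in OP-mESCs. With 20 reads, 0 CpGs were called lower in OP-mESCs against YP-mESCs, 0 ICRs higher in OP-S33Y #1 against YP-mESCs, 0 CpGs higher in either clone against OP-mESCs, and 1 ICR and 9 CpGs higher in mESC shCtrl against YP-mESCs. With the strands apart, 0 CpGs were called higher in OP-mESCs or in OP-S33Y #2 against YP-mESCs, and over 10 points 3 were called higher in EB shCtrl against mESC shCtrl. Without CCGG CpGs, 1 CpG was called lower in OP-mESCs against YP-mESCs, 0 higher in OP-S33Y #2 against YP-mESCs, 1 higher in either clone against OP-mESCs, and 10 higher in mESC shCtrl against YP-mESCs.

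With a replicate left out in turn, 0 to 3 ICRs were called lower and 0 to 1 higher in OP-mESCs against YP-mESCs, and 3 to 9 CpGs lower and 0 to 1 higher, with 9 without OP-mESC replicate 2 or YP-mESC replicate 1. Against YP-mESCs, 0 to 1 ICRs were called higher in OP-S33Y #1, and 1 to 2 ICRs and 0 CpGs in OP-S33Y #2. Against OP-mESCs, 0 to 1 ICRs and 3 to 16 CpGs were called higher in OP-S33Y #1, and 0 to 4 ICRs and 3 to 22 CpGs in OP-S33Y #2, with the highest counts without OP-mESC replicate 2. In EB shCtrl against mESC shCtrl, 0 to 1 CpGs were called lower and 1 to 2 higher, and in mESC shCtrl against YP-mESCs 13 to 19 CpGs higher, with 13 without mESC shCtrl replicate 2.

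The replicate numbers were not used as pairs in the main tests, and whether they pair the samples is not known. In EB shCtrl and EB shβcat #1, 39.5% and 38.5% of reads were methylated in replicate 1, and 32.0% and 31.0% in replicate 2. In mESC shCtrl and mESC shβcat #1 the shares were 29.8% and 32.5% in replicate 1, and 35.6% and 33.1% in replicate 2. With the number as a replicate block, 0 ICRs were called higher in OP-S33Y #1 against YP-mESCs, and no other count moved by over 1.5 times. The number of CpGs covered limits the comparisons with OP-mESCs, whose replicate 2 left 2 of the 6 ICRs with 2 or more common CpGs, at a median of 36 reads per CpG.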
